A study of Mus musculus with 18 samples.

Results

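In mouse liver tumours driven by MYC, 250 of 4775 MYC-bound regions (5.24%) lay at the end of a noncoding gene and away from every protein-coding gene end. Overlapping peaks of 9 MYC libraries were merged, and the summit of a region was the median of the summits of its peaks. A region was kept when this summit lay within 1 kb of either end of a gene that is not protein-coding and more than 1 kb from either end of every protein-coding gene. Another 2926 regions lay at a protein-coding end, and 1599 lay at no gene end. The choice used position only, and no peak height.

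The study profiled MYC by ChIP-seq in frozen tumours from the livers of FVB mice that differed in Arid1a, which encodes a subunit of the SWI/SNF chromatin remodeller. All animals carried LAP-tta and TRE-MYC, so MYC was switched on in hepatocytes when doxycycline water was withdrawn, and tumours were taken at death. The WT group had 2 floxed Arid1a alleles and no Cre, at about 55 days of age. The Het group had 1 floxed allele with Alb-cre at about 70 days, and the Homo group had 2 floxed alleles with Alb-cre at about 100 days. Alb-cre acts in hepatocytes, and other cells of a tumour keep Arid1a. Cre and age differ between WT and the other groups, and the number of floxed alleles and age differ between Het and Homo, so their parts cannot be told apart. Each group had 3 MYC libraries and 3 input libraries, and nothing in the labels says that they came from separate animals. Peak lists carry no measure of Arid1a loss or of cell types, so neither label was checked here.

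MYC binds DNA as a dimer with MAX, with highest affinity at the E-box CACGTG. It acts on genes of all 3 nuclear RNA polymerases, among them tRNA genes, which RNA polymerase III transcribes from promoters inside the gene. Small nucleolar RNAs (snoRNAs) guide the modification of ribosomal RNA, and many are cut from introns of noncoding host genes such as those of the Snhg family.

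The sequences under the summits are shown first, since the E-box is what MYC is known to read. RefSeq promoter windows (GRCm38.p6, 250 bases before to 50 after a listed start) reached the summit of 52 of the 250 regions from a noncoding start. In the 4 regions below, chosen after their sequence was seen because they recurred in 3 to 6 libraries and held an E-box near the summit, capitals mark CACGTG. They are Trmt61b (chr17:71598729-71598839), Gm31812 (chr1:52113844-52113954), Gm17382 (chr17:26886197-26886280) and Gm19417 (chr4:97869004-97869114), all on the minus strand and printed 5′ to 3′ along the gene.
Trmt61b: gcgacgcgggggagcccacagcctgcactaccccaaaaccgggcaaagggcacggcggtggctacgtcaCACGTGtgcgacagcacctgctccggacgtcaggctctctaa
Gm31812: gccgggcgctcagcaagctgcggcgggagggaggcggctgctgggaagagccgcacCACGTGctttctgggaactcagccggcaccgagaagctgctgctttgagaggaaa
Gm17382: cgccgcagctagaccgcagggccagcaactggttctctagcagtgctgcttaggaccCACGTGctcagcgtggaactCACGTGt
Gm19417: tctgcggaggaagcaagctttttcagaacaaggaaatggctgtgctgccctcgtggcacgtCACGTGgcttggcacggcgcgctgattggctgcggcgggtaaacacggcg

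The centre of the nearest E-box lay 16.5 bp from the summit at Trmt61b, 3.5 bp at Gm31812, 4.5 bp at Gm17382 and 8.5 bp at Gm19417. By contrast, 2 regions present in 6 libraries had no CACGTG in their window. They are the start of Snhg5 (chr9:88523031-88523141, minus strand) and the shared start of Gm12762 and Gm12758 (chr7:34234131-34234241, plus strand), and capitals mark the related hexamer CACGCG.
Snhg5: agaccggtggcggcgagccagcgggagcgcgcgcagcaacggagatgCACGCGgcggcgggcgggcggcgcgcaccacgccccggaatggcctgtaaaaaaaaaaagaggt
Gm12762: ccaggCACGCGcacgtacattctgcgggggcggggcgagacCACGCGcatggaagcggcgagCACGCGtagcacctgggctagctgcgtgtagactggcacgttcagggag

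Across the 52 regions with a noncoding window at the summit, 18 (34.6%) held CACGTG, against 683 of 11587 windows of noncoding genes (5.89%). A region counted when any of its windows held the motif, and by single window it was 20 of 59 (33.9%). The share was 11 of 24 (45.8%) for regions found in 2 or more libraries and 7 of 28 (25%) for regions found in 1. Regions at protein-coding ends gave 308 of 1142 (27.0%) in protein-coding windows, or 35.6% in 2 or more libraries and 19.1% in 1, where 7.84% of all protein-coding windows held the motif. The nearest E-box centre was a median of 17 bp from the summit over the 18 regions, and 15 of them had it within 50 bp. At the 308 protein-coding regions the median was 33.5 bp, and 63.6% had it within 50 bp. CACGCG or its reverse complement CGCGTG stood in 24 of the 52 (46.2%), against 4.02% of noncoding windows, and CATGTG or CACATG in 6 (11.5%), against 18.96%. At the 1142 protein-coding regions the shares were 43.6% and 12.6%, against 12.1% and 11.5% of all protein-coding windows. Both strands were searched for each motif, no hexamer matches more than 1 of these motifs, and a window can hold several. Base composition moved with these shares: the median GC content was 67.2% at the 52 regions and 48.3% over all noncoding windows. Its part in the motif shares was not tested. The 198 remaining regions had no noncoding window at the summit and are not in the shares above. Protein-coding windows, 23 in number, reached the summit of 20 of the 250 regions, and 65 had a window of either kind. Of the 23 windows, 4 (17.4%) held CACGTG and 13 (56.5%) held CACGCG or CGCGTG. Some of the 52 regions thus also lay in a protein-coding window, and at D930003E18Rik and Gm32934 both windows held the same E-box.

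Read at the level of whole libraries, the lists differed widely in length. They held 51 to 4291 peaks, with WT 3 the longest, and the reads recovered from the deposited fold and p put the input at 3.37 to 6.27 reads per kb. WT 1 and Homo 2 stood apart, with 14 of 92 and 10 of 51 peaks at protein-coding ends, but leaving both out kept the number of regions at 250. WT 3 was the sole source of 118 of the 250, against 2020 of all 4775 regions, and 132 of the regions at noncoding ends stood without it. Each count below therefore rests in part on 1 library.

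Long noncoding RNA (lncRNA) genes were the nearest noncoding end of 188 regions (75.2%). Pseudogenes were nearest at 21, tRNA genes at 18, small nuclear and other structured RNA genes at 12, miRNA genes at 9 and snoRNA genes at 2. Immunoglobulin and T-cell receptor segments were nearest at 0. Without WT 3, lncRNA regions numbered 97, pseudogene regions 11 and tRNA regions 8. The nearest gene was one with a provisional symbol (Gm, LOC or Rik) in 184 regions (73.6%).

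The sequence that met the same distance rule makes these counts comparable between classes. It came to 84.3 Mb, or 3.10% of the sequence, so the 250 regions stood at 2.97 per Mb. Protein-coding ends held 36.9 regions per Mb, and sequence away from all gene ends held 0.625 per Mb. Sequence within 1 kb of tRNA gene ends held 34.8 per Mb (21 regions), miRNA ends 5.15 per Mb (10), small nuclear and other structured RNA ends 4.50 per Mb (12), lncRNA ends 4.28 per Mb (192), snoRNA ends 3.56 per Mb (9) and pseudogene ends 0.762 per Mb (24). These counts take every class within 1 kb, so a region can count under more than 1. The tRNA density was thus close to that of protein-coding ends, and the pseudogene density close to that of sequence with no gene end. All of these densities were lower without WT 3, at 16.6 per Mb for tRNA ends (10 regions), 21.0 for protein-coding ends, 0.349 for pseudogene ends and 0.383 for sequence with no gene end. Neither difference was tested, since regions within 1 cluster of genes are not independent.

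**Figure D1:**
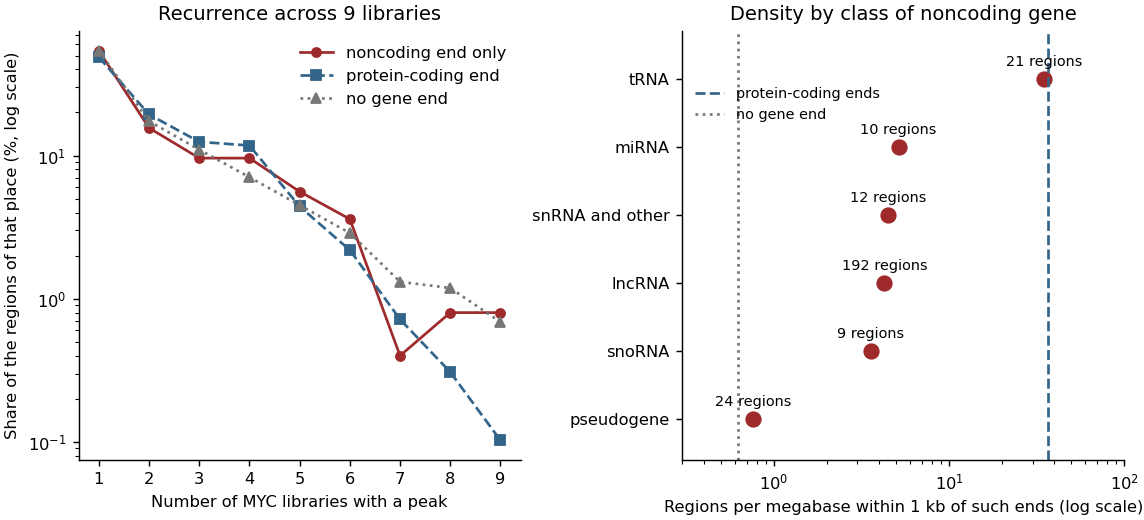
Left, the share of regions (%, log scale) by the number of MYC libraries with a peak, for the 250 regions at noncoding ends only, the 2926 at protein-coding ends and the 1599 at no gene end. Right, regions per megabase (log scale) within 1 kb of each class of noncoding end, with dashed and dotted lines for protein-coding ends (36.9) and sequence with no gene end (0.625); tRNA ends stand at 34.8 and pseudogene ends at 0.762.

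The strand was known for 164 of the 250 regions, where the start of a miRNA gene is an end of its hairpin. Of the 164, the nearest end was the start in 131 (79.9%) and the far end in 33. Summits lay a median of 184 bp from these starts and 371 bp from these far ends, and 74 of the 250 lay within 100 bp of an end. A peak in 2 or more libraries was found at 47.3% of the starts and 36.4% of the far ends. The span of a protein-coding gene covered 110 regions, and 50 lay within 1 kb of a listed start of a protein-coding gene that is not an end of its span, such as Nup210 beside Gm30364 and Cops7a beside Gm23851. These 50 reached at most 5 libraries, as at Gm30364 and Gm23851, so none is among the 14 of the 250 regions found in 6 or more. The rule counted span ends alone, and 200 regions stood when such internal starts were counted too. Regions just inside the distance to a noncoding end were Gm41404 (977 bp) and Gm35352 (983 bp), and Gm17762 (1014 bp) and Gm31717 (1020 bp) lay just outside. On the protein-coding side Gm38411 (1002 bp) and Gm35025 (1035 bp) lay inside, and Mir7666 (968 bp) and 4831440E17Rik (975 bp) outside.

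Recurrence across libraries was similar to that of other regions. A peak in 2 or more libraries was found at 115 regions (46%), against 49.3% of all 4775 regions, 51.3% of those at protein-coding ends and 46.0% of those at no gene end. A peak in 6 or more was found at 14 (5.6%), against 4.36% of all regions. These 14 comprised 12 lncRNA genes and 2 pseudogenes, and 12 of the 14 had a peak in a Homo library. Among all 208 regions in 6 or more libraries, 190 (91.3%) had one, and any region in 7 or more must. Fold below is the authors' enrichment over local background at the summit of a peak, and it is ranked within the list of its own library.

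Gm31068, an lncRNA gene of chromosome 5 (chr5:142365670-142367200, plus strand), was found in all 9 libraries. Its summit at chr5:142367674 lay 474 bp past the far end, and the nearest protein-coding end, of Foxk1, was 33823 bp away. The authors' fold was 12.8, 18.7 and 19.1 in WT 1, 2 and 3, 22.0, 19.9 and 21.6 in Het, and 10.3, 10.4 and 16.3 in Homo. It stood at the 92.9th percentile of its lists on average, from 72.5 in Homo 2 to 99.5 in Het 1. Every library thus placed it in the upper part of its own list.

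Snhg15, a snoRNA host gene, was the other region found in all 9 libraries, with its summit (chr11:6528682) 78 bp inside its start (gene at chr11:6525591-6528760, minus strand). Its fold was 5.07, 23.6 and 26.4 in WT, 12.95, 25.5 and 6.87 in Het, and 9.89, 6.32 and 10.8 in Homo. The within-list percentile ran from 5.43 in WT 1 to 99.8 in WT 3, so the libraries of each genotype overlapped. The 26.4 in WT 3 was the highest fold of any of the 250 regions and rested on 151 reads at the summit.

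Snhg17, a second host gene, had a peak 74.5 bp from its start in 8 libraries (chr2:158361447.5, the midpoint of its peaks' summits). The fold was 4.88, 10.1 and 15.4 in WT, 8.32, 19.7 and 6.86 in Het, and 7.62 and 11.9 in Homo 1 and 3. Snhg5, whose start is printed above, was found in 6 libraries, with folds of 4.18 and 11.7 in WT 2 and 3, 9.59, 11.5 and 5.47 in Het, and 6.19 in Homo 3. No list held a Snhg5 peak in WT 1, Homo 1 or Homo 2, the 3 shortest lists.

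Pvt1, the lncRNA gene next to Myc, had a peak in 8 libraries at chr15:62038035, 49 bp inside an end of its span (chr15:62037986-62260215). The nearest protein-coding end was that of Myc itself, 47674 bp away. The fold was 8.07, 16.2 and 14.7 in WT, 10.4, 6.14 and 8.23 in Het, and 7.57 and 10.9 in Homo 1 and 3. All values but that of Homo 2, where no peak was listed, thus lay between 6.14 and 16.2.

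Of the 9 regions in exactly 6 libraries, 7 had peaks in WT 2, WT 3, all Het libraries and 1 Homo library. They were Gm12762, Gm31862, 2700038G22Rik, Gm41404, 1700113A16Rik, Snhg5 and Trmt61b. The Homo library was Homo 1 for 2700038G22Rik (fold 6.10) and Homo 3 for the other 6. At Gm12762 the fold was 12.5 and 22.8 in WT 2 and 3, 6.60, 13.05 and 9.997 in Het, and 9.19 in Homo 3. Trmt61b, named for a tRNA methyltransferase and listed as an lncRNA gene in the table used, had folds of 7.81 and 13.2 in WT, 6.26, 5.59 and 5.29 in Het, and 5.49 in Homo 3. The remaining 2 regions, LOC105243223 within the span of the endothelin receptor gene Ednra and the pseudogene Gm17835, had a peak in all 6 WT and Het libraries and in 0 of 3 Homo libraries. Their folds ranged from 5.33 to 10.7 and from 5.61 to 17.3. Among the 14 regions in 5 libraries, Hnf4aos, an antisense RNA gene at the liver transcription factor gene Hnf4a, had folds of 9.77 in WT 3, 8.14, 5.78 and 7.74 in Het, and 7.60 in Homo 3.

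**Figure D2:**
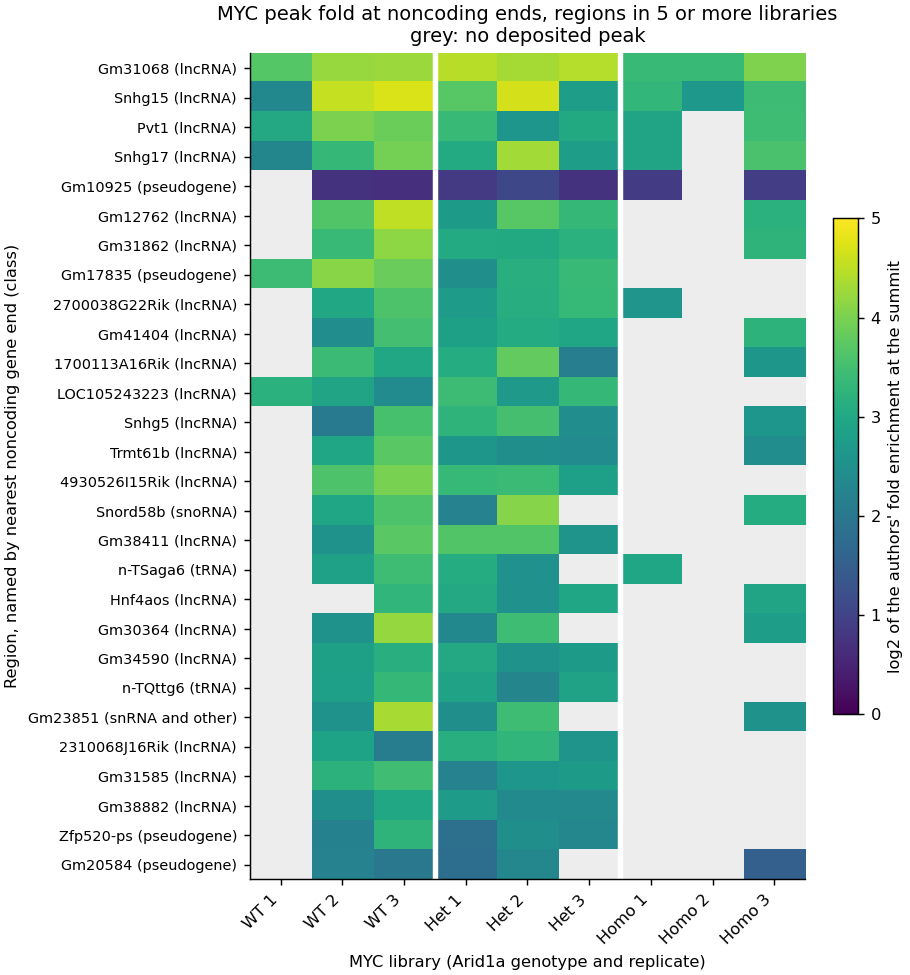
Log2 of the authors' fold at the summit (colour) in each MYC library (columns, by genotype and replicate) for the 28 regions with a peak in 5 or more libraries (rows, with the class of the gene); grey marks no deposited peak. Gm31068 and Snhg15 have a peak in all 9 libraries, and Homo 2 has a peak in those 2 rows alone.

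snoRNA host genes were examined as a list. Of 22 host genes in the gene table, 13 (59.1%) had a MYC region within 1 kb of an end, and 7 had one in 2 or more libraries. Over all 12727 lncRNA genes the share with a region was 4.25%, over all 28056 noncoding genes 2.58% and over protein-coding genes 14.9%, and these differences were not tested. The region was at a noncoding end only for 10 of the 13, and for 3 (Snhg1, Snhg6 and Snhg10) it was also at a protein-coding end. Besides Snhg15, Snhg17 and Snhg5, the 10 were Dancr (3 libraries), Snhg4 (2), and Epb41l4aos, Snhg16, Snhg8, Snhg9 and Zfas1 (1 each). Dancr hosts Snora26, and the region 74 bp from Snora26 and 396 bp from Dancr had folds of 8.05 in WT 2, and 3.97 and 7.78 in Het 1 and 2. Snhg4 had folds of 6.72 in WT 3 and 6.54 in Het 2. For the 5 found once, the peak was in WT 3 for Snhg16 (fold 7.95), Snhg9 (7.01), Epb41l4aos (4.26) and Snhg8 (3.68), and in Het 2 for Zfas1 (4.68).

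Of a list of 149 snoRNA and other structured RNA genes, picked by symbol, 22 (14.8%) had a region, against 2.58% of all noncoding genes. Over the whole snoRNA class the share was 36 of 1340 genes (2.69%). Over small nuclear and other structured RNA genes it was 30 of 1234 (2.43%), so the 14.8% holds for the list alone. Of the 22, 8 had it at a noncoding end only. The other 14 had it at a region that was also at a protein-coding end, as for snoRNA genes inside ribosomal protein genes. Snord58b, inside the ribosomal protein gene Rpl17, was one of the 8, since the summit lay 1683 bp from the end of the Rpl17 span. It had folds of 7.76 and 12.1 in WT 2 and 3, 4.65 and 17.1 in Het 1 and 2, and 8.53 in Homo 3. The product of the U3 RNA genes Rnu3b1 to Rnu3b4 guides the first cuts of the ribosomal RNA precursor. The annotation used types these genes as snRNA, so they count under small nuclear and other structured RNA, not under snoRNA. They held 5 regions within 28.2 kb of chromosome 11, inside the span of Tex14. Of these, Rnu3b1 had folds of 3.84 in WT 3, and 6.21 and 8.78 in Het 1 and 2, and Rnu3b3 had 12.4 in WT 3 and 8.79 in Het 1. The other 3 had a peak in WT 3 alone, and no region of the group had one in a Homo library. The copies are near-identical, and the sources used here do not say how the authors placed reads that fit several copies.

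tRNA genes and other RNA polymerase III transcripts formed the largest list. Of 418 genes, 36 (8.61%) had a region, against 2.58% of all noncoding genes, and 27 of them had it at a noncoding end only. A tRNA gene lay within 1 kb of 21 of the 250 regions. Of these, 8 (38.1%) had a peak in 2 or more libraries, against 49.3% of all 4775 regions. On chromosome 1, 10 of the 21 lay within 48.1 kb of each other (chr1:171064027 to chr1:171112163.5), among genes for glycine, glutamate, aspartate, leucine and valine tRNAs. In 9 of these 10 the peak was in WT 3 alone, with folds up to 12.1 at n-TGgcc13, and the tenth, n-TVcac6, had folds of 6.39 and 5.76 in Het 1 and 2. On chromosome 13, 5 lay between chr13:21171797 and chr13:23432725, an interval that also holds histone genes such as H2bc11, whose end was the nearest protein-coding end to n-TSgct5.

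The most recurrent tRNA gene region lay within 487 bp of n-TCgca52, a cysteine tRNA gene, and is the Trmt61b start described above. n-TSaga6, a serine tRNA gene on chromosome 13, followed in 5 libraries, with folds of 7.28 and 10.9 in WT 2 and 3, 8.50 and 5.76 in Het 1 and 2, and 7.62 in Homo 1. n-TQttg6, a glutamine tRNA gene on chromosome 11, had folds of 7.10 and 10.1 in WT 2 and 3, and 7.41, 4.85 and 7.38 in Het. n-TYgta7 had folds of 8.12 in WT 3, and 7.56 and 8.07 in Het 1 and 2, and n-TSgct5 had 5.21 and 11.2 in WT 2 and 3. These summits lay outside the genes, 783 bp from n-TSaga6, 422 bp from n-TQttg6, 265 bp from n-TYgta7 and 339.5 bp from n-TSgct5. A summit within 100 bp of the gene end was found at 5 of the 18 regions nearest a tRNA gene. Of the 21 regions, 2 had a peak in a Homo library, where 7.2% of all 4775 regions did. tRNA genes occur in families of near-identical copies, so values of single genes carry the limit given for Rnu3b.

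Of 23 well-known lncRNA genes, 3 (13.04%) had a region, against 4.25% of all lncRNA genes: Pvt1 and Peg13 at a noncoding end only, and Tug1 at a protein-coding end too. Peg13, an imprinted lncRNA gene within Trappc9, had folds of 10.1 in WT 3 and 5.53 in Het 1. Malat1, Neat1, H19 and Meg3 were among the 20 with no region. A list of 37 miRNA genes of liver and growth gave 3 with a region (8.11%, against 3.34% of all miRNA genes), of which Mirlet7i was at a noncoding end only, and Mir21a and Mir320 were at regions that were also at protein-coding ends.

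The 9 regions nearest a miRNA gene had peaks in at most 4 libraries, and 0 of the 9 had one in a Homo library, where 7.2% of all 4775 regions did. Mir7653, in the span of Tlcd1, had the highest folds, with 10.7 and 12.5 in WT 2 and 3, and 9.58 and 15.0 in Het 1 and 2. Mirlet7i, which gives a member of the growth-restraining let-7 family, had folds of 8.46 in WT 3, and 8.10 and 4.52 in Het 1 and 2, with the summit 769 bp from the hairpin. Mir1893 had folds of 11.3 and 14.8 in WT 2 and 3, and 7.14 and 7.47 in Het 1 and 2. Mir203 (WT 3 and Het 2), Mir6374 and Mir193a (WT 2 and 3) were found in 2 libraries each, and Mir6546, Mir210 and Mir7011 in 1. Mir7653 and Mirlet7i were the most recurrent loci with a listed mature sequence, and none was listed for Mir1893. Their mature sequences (RefSeq, GRCm38.p6), which are the products these regions adjoin, follow with the seed in capitals.
miR-7653-5p: uAAGGGGCggacagacagacgg
miR-7653-3p: cCCCUACUguuccaccccgccu
let-7i-5p: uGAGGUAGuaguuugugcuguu
let-7i-3p: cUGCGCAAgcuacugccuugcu
The 17 mature miRNAs listed for miRNA genes within 1 kb of the regions had 17 different seeds, so none shared its seed with another. They include those of Gm51289 beside Mir203 and leave out Mir1893.

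Most of the regions with a high local background were at pseudogene ends. Background is given as a multiple of the lowest in the same list, as recovered from the authors' fold and p. It was 5 or more at 9 of the 250 regions, 6 of which were nearest a pseudogene, and none of these 9 had a fold above 5.58. Gm10925, a pseudogene in a nuclear copy of mitochondrial DNA on chromosome 1, was found in 7 libraries at folds of 1.66 and 1.62 in WT 2 and 3, 1.80, 2.13 and 1.66 in Het, and 1.86 and 1.87 in Homo 1 and 3. Its background was 81.7 times the lowest and its mean percentile 0.384, so its recurrence came with folds at the bottom of each list. Gm20584 had folds of 2.89 to 4.95 in 5 libraries at 13.9 times the lowest background, and it is 1 of 4 regions of chromosome 8, within 639.9 kb, at 9.18 to 25.5 times. The part of repeated sequence in these peaks was not tested. Gm17835 had the highest fold among the pseudogenes, with a background at the lowest of its lists and folds of 10.8, 17.3 and 14.6 in WT, and 5.61, 8.96 and 10.5 in Het. Other pseudogenes named by the same ranking were Zfp520-ps (5 libraries, highest fold 9.51) and Gm18590 (4 libraries, highest fold 7.75).

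**Figure D3:**
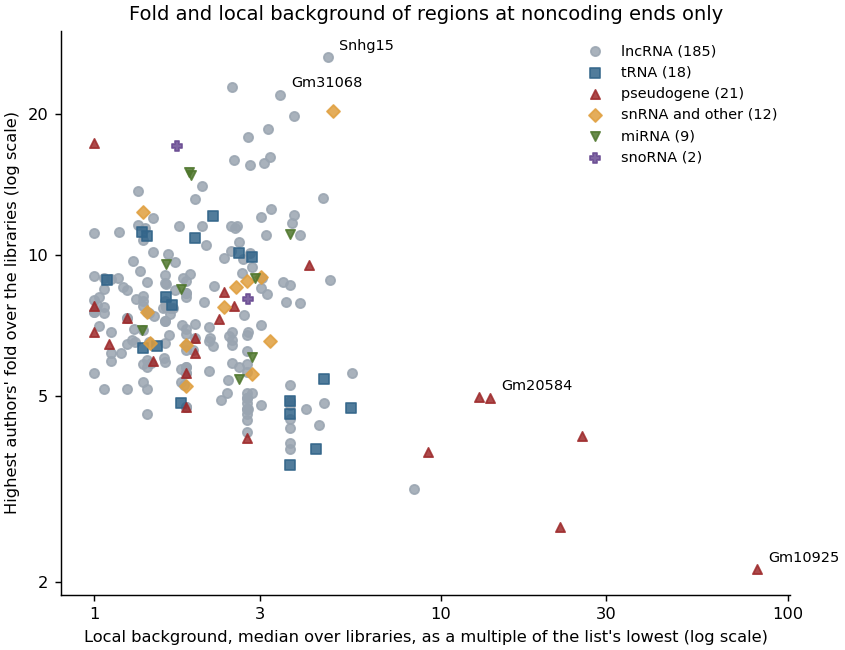
Highest authors' fold over the libraries (log scale) against the local background as a multiple of the lowest in the list (median over libraries, log scale), for the regions whose fold and p could be solved, by class. Gm10925 stands alone at 81.7 times the lowest background with a highest fold of 2.13, whereas Snhg15 and Gm31068 stand at 26.4 and 22.0.

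Heights at noncoding ends lay between those of the other places. The median within-list percentile of fold was 42.2 to 65.2 over the 9 libraries. Peaks at no gene end had a higher median than these in 8 of 9 libraries, and peaks at protein-coding ends had a lower one in 8 of 9. The exceptions were Homo 1, where noncoding ends had 65.2 against 51.8 at no gene end, and Het 2, where they had 42.2 against 47.5 at protein-coding ends. These are descriptions of each list, and no test was made of them.

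The next comparison asked how the regions were spread over Arid1a genotypes. Peaks were found at 6, 75 and 227 of the 250 regions in WT 1, 2 and 3, at 86, 97 and 28 in Het, and at 8, 2 and 17 in Homo. The mean was 103 ± 113 in WT, 70.3 ± 37.1 in Het and in Homo it was 9 ± 7.55 (SD over 3 libraries). WT libraries overlapped both other groups, while all Homo libraries were below all Het libraries. On the scale of log10 of the count plus 1, Homo minus Het was -0.90 (two-sided exact permutation test, p = 0.1, adjusted p = 0.714 over 8 tests). With 3 libraries on each side the test cannot go below 0.1. Homo minus WT was -0.80 (exact p = 0.3, adjusted p = 0.8), and Het minus WT was 0.10 (exact p = 0.8, adjusted p = 1). The 3 genotypes together took 46.6% of the sum of squares (exact permutation p = 0.179, adjusted p = 0.714). None of these differences was beyond the spread between libraries by its test. Het minus WT turned to -0.32 without WT 1. In bulk tumour, fewer bound cells and less binding per cell cannot be told apart, and the number of peaks also moves with the length of each list.

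The number of regions moves with list length, and the make-up of the lists also differed, as in WT 1 and Homo 2. The share of a library's peaks that lay in these regions removes the direct effect of length alone. It was 6.52%, 4.79% and 5.31% in WT 1, 2 and 3, 5.08%, 5.30% and 7.41% in Het, and 8.04%, 3.92% and 5.61% in Homo. Exact 95% limits (Clopper-Pearson), covering counting error alone, were widest for the shortest lists: 0.478 to 13.5% in Homo 2 against 4.66 to 6.03% in WT 3. WT averaged 5.54 ± 0.890%, Het 5.93 ± 1.29% and Homo 5.86 ± 2.07% (SD, n = 3), and the groups overlapped. Het minus WT was 0.387 percentage points (exact permutation p = 0.7), Homo minus WT 0.315 (exact p = 0.8) and Homo minus Het -0.0718 (exact p = 1), with an adjusted p of 1 for each. Genotype took 1.86% of the sum of squares (exact permutation p = 0.936, adjusted p = 1). A p that misses the threshold does not show that the shares are equal, and the sign of each pair changed under some alternatives.

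**Figure D4:**
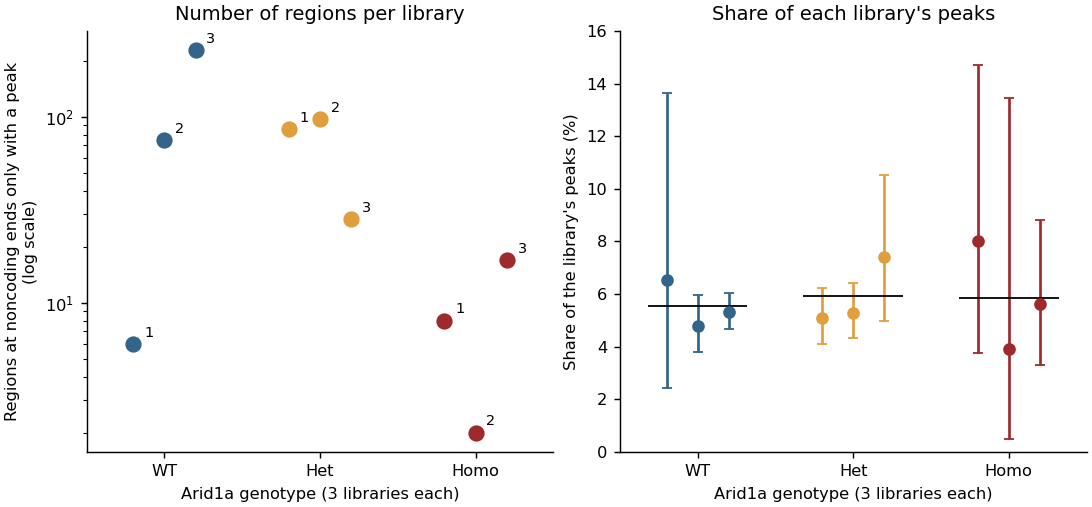
Left, the number of the 250 regions with a peak in each library (log scale; the digit is the replicate) by genotype. Right, the share of each library's peaks in these regions (%) with its 95% exact interval, with a line at the mean of 3 libraries; the counts fall from 227 to 2 across libraries, while the shares stay between 3.92% and 8.04%.

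Single regions were then sorted by genotype. A peak in any library was found at 234 regions in WT (93.6%), at 120 in Het (48%) and at 20 in Homo (8%), and over all 4775 regions these shares were 93.4%, 51% and 7.2%. All 20 Homo regions also had a peak in a WT and in a Het library, which is 100% of the Homo regions, 8.55% of the WT regions and 16.7% of the Het regions. Over all regions 337 of 344 (98.0%) did. WT alone had 130 regions (52%), against 48.9% of all 4775, Het alone had 16 (6.4%), against 6.53%, and Homo alone had 0, against 0.0209%.

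For a stricter sort, a region needed peaks from 2 or 3 libraries of 1 genotype and none from the other. WT without Het gave 9 regions (3.6%), against 4.13% of all regions, and Het without WT gave 2 (0.8%), against 0.607%. The 9 included BC065397 (folds 6.63 and 8.01 in WT 2 and 3), n-TSgct5, 5430440P10Rik (6.85 to 7.03), Mir6374 (6.92 and 6.02) and Mir193a (4.31 and 8.93), and the 2 were n-TVcac6 and Gm38728 (4.26 and 4.32 in Het 1 and 2). The 9 became 0 without WT 2 or without WT 3 and 15 without Het 2, and the 2 became 4 without WT 2, 16 without WT 3, and 0 without Het 1 or Het 2. WT without Homo gave 51 regions (20.4%), against 22% of all, and 2 without WT 2 or WT 3. Het without Homo gave 49 (19.6%), against 18.1%, and 10 without Het 1 or Het 2. Gm17835, LOC105243223, 4930526I15Rik, Gm38411 and Gm34590 led both of these last groups, which share the Homo libraries. Homo without WT and Homo without Het each gave 0 regions, against 0% of all. Each of these shares is near that of all regions.

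A peak in 2 or more libraries of both WT and Het was found at 50 regions (20%), against 18.1% of all. The same in WT and Homo was found at 5 (2%), against 2.03%, and in Het and Homo at 5 (2%), against 2.01%. Gm31068 and Snhg15 had a peak in all 3 Homo libraries, and Pvt1, Snhg17 and Gm10925 in 2.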

How the data were processed

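MYC ChIP-seq peak lists of 9 libraries were analysed; the 9 input libraries had no list of their own here. Per the submitters' processing notes, reads were handled on mm10 with MACS2 2.0.10.20131216, Bowtie2 2.2.3, HOMER and Picard, and the sources used here do not give the peak threshold. Each deposited list gives the authors' fold enrichment (a ratio), −log10 of the p and of the q value as deposited, the authors' score (not used) and the summit's offset from the peak start as deposited. Peaks were called per library, so the library is the replicate, and p-values measure the spread between libraries, which may be technical.

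Peaks were merged at 1 bp of overlap, placed against gene spans of RefSeq GRCm38.p6 (no exons) and classed by the nearest noncoding end. Strand came from the promoter table, or from the RefSeq miRNA sequences for miRNA genes that it lacks. The sequence length ran to the last gene end or peak of each chromosome. Fold and p together gave the whole reads under a summit, and its local background, for 10279 of 10376 peaks (99.07%), the depth behind each value; the steps were tested on simulated data. Genotypes were compared by exact permutation over libraries (two-sided), with Benjamini-Hochberg adjustment over 8 tests. Alternatives covered distances, gene classes, peak limits, list length, depth and each library left out. The members, gene lists and tests were chosen with earlier results of these data known. Named are the regions in 6 or more libraries, the 5 most recurrent of each class, and up to 5 per genotype pair and direction. Also named are the listed genes with a region at a noncoding end only, and the 2 regions nearest each side of a distance limit. Some regions are named outside these rules, among them Hnf4aos, Gm30364 and regions whose sequences are printed. Python 3.11.15, numpy 2.4.6, pandas 2.3.3 and scipy 1.17.1 were used.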

Additional observations from a re-analysis of the deposited data

How the results depend on the processing

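The settings covered 30 alternatives, and 0 of the tests passed an adjusted p of 0.05 under any. An exact permutation test of a genotype pair cannot go below 0.1, so no pair could pass. The lowest adjusted p was 0.257, for the 3 genotypes without WT 1 (78.2% of the sum of squares, exact permutation p = 0.0321). The number of regions was 131 at 250 bp and 507 at 5 kb to a noncoding end, 166 at 5 kb from protein-coding ends, 141 with listed noncoding starts alone, 114 after thinning to the shallowest input at the same p limit, and 13 with lists of equal length; it ran from 132 (without WT 3) to 251 when 1 library was left out. Regions in 2 or more libraries numbered 62, 241, 67, 67 and 7 under the 250 bp, 5 kb, listed-start, thinned and equal-length settings, and 79 to 115 with 1 library left out.

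Regions in WT and not Het (9) numbered 5, 22, 3, 4, 5, 0 and 0 at 250 bp, at 5 kb, with listed starts, at −log10 q of 5, at −log10 p of 10, thinned and at equal length, and 0 to 15 with 1 library left out. Those in Het and not WT (2) numbered 1, 7, 0, 1, 0, 4, 1, 5 and 0 at 250 bp, at 5 kb, at 5 kb from protein-coding ends, with listed starts, at −log10 q of 5, at a fold of 5, at −log10 p of 10, thinned and at equal length, and 0 to 16 with 1 left out. Those in WT and not Homo (51) numbered 25, 99, 33, 11 and 1, and those in Het and not Homo (49) 27, 85, 32, 30 and 0, at 250 bp, at 5 kb, with listed starts, thinned and at equal length; they ran from 2 to 61 and from 10 to 61 with 1 left out. Homo without WT and Homo without Het were 1 each at equal length.

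Some differences turned sign. For the log10 count, Het minus WT was -0.074 at equal length, -0.32 without WT 1 and also without both WT 1 and Homo 2, and -32.3 on the plain count, with -0.32 to 0.43 when 1 library was left out; at equal length Homo minus WT was 0.033 and Homo minus Het 0.11. For the share in percentage points, Het minus WT was -1.18 at 5 kb, -0.185 at 5 kb from protein-coding ends and -0.654 at equal length, and -0.353 to 0.878 with 1 left out. Homo minus WT was -0.160 with listed starts and -0.276 without regions of high background, 1.77 without WT 1 and Homo 2, and -0.774 to 1.28 with 1 left out. Homo minus Het was 0.00509 at 250 bp, 3.39 at 5 kb, 1.13 at 5 kb from protein-coding ends, 0.0436 with 5 gene classes, 0.109 with the highest summit, 0.00907 at a fold of 5, 1.96 at equal length, 0.895 without WT 1 and Homo 2, 0.409 with listed protein-coding starts as ends, and -1.16 to 0.895 with 1 left out. The percentile of fold was 43.9 at 250 bp, 43.7 with listed starts, 68.5 thinned and 83.5 at equal length. The cause of these changes was not tested, except that thinning and equal length keep fewer peaks by construction. CACGTG stood within 50 bp in 9 of 31 regions (29.0%) and within 100 bp in 4 of 18 (22.2%) whose window reached that far. At protein-coding ends it stood in 141 of 817 (17.3%) and 131 of 480 (27.3%). The share at noncoding ends was thus the higher at 50 bp and the lower at 100 bp. A distance of 250 bp was not run, since no genome was used.

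The correlations of same-numbered libraries of different genotypes ran from -0.196 to 0.0633 over 2337 regions. Those of differently numbered libraries ran from -0.151 to 0.206, so same-numbered libraries were not more alike. Whether libraries with the same replicate number shared a batch was not tested. With the replicate number as a block, the differences keep their values (Het minus WT 0.10, Homo minus WT -0.80, Homo minus Het -0.90, 46.6% over 3 genotypes, and shares 0.387, 0.315, -0.0718 and 1.86%). The exact permutation p was 0.25 or more for each. With 3 blocks the test of a pair cannot go below 0.25, so for pairs the block could change no call. Over 3 genotypes it changed none. The exclusions of WT 1 with Homo 2, of high background and of listed protein-coding starts, and the use of whole windows for CACGTG, were chosen after seeing the data. Single Homo libraries rest on few peaks, with 2 to 17 of the regions each, and the role of depth in this was not tested.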
